A study of Mus musculus with 84 samples.

Results

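The transcription factors that assign sensory neurons to their classes were followed through single vagal sensory neurons of the mouse airways. The set was a named list of 10 genes, Isl1, Pou4f1, Pou4f2, Pou4f3, Prdm12, Prrxl1, Runx1, Runx3, Etv1 and Phox2a, out of 50686 genes in the count table. All 10 were found in the table by symbol, and each was read as CPM, counts brought to 1000000 per neuron, in every neuron with at least 5000000 counts. This kept 72 of 84 neurons. The threshold for detection was 10 CPM, equal to 67.3 counts in the shallowest neuron kept.

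The neurons came from the vagal ganglia of C57BL/6 mice and had been traced backwards from the airways with the lipophilic dye DiI at 2%, picked singly and amplified before sequencing. They formed 1 group with no treatment named, and no label gives an age, a sex or the animal of a neuron. The group was therefore treated as 1 sample, with no test, and differences between sets of neurons were named by size, when shares of neurons lay 40 percentage points or more apart. Total counts in the kept neurons ranged from 6732279 to 20668832 with a median of 12860300, and the number of genes at 10 CPM ranged from 841 to 8870. Because of this range, comparisons between factors used the 38 neurons with 5000 or more genes. Pan-neuronal genes were detected in the kept neurons, with a summed level from 488.5 to 33238 CPM and a median of 15155 CPM. Markers of satellite glia were present as well, at 9.01 to 56618 CPM with a median of 1355 CPM. Leukocyte markers were near 0, with a median of 0.111 CPM and a highest sum of 348.3 CPM.

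Sensory neurons are assigned to classes by transcription factors that act in turn. The homeodomain proteins Isl1 and Pou4f1 act in nearly all of them and switch off earlier programmes, and further factors divide them: Prdm12, Prrxl1 and Runx1 in neurons for pain and itch, Runx3 and Etv1 in neurons of muscle sense. The vagal ganglia join neurons from the neural crest in the jugular ganglion, where Prdm12 is known to act, with neurons from placodes in the nodose ganglion, where Phox2a is known to act. Positions of the genes are those of GENCODE M21 on GRCm38.

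**Figure D1:**
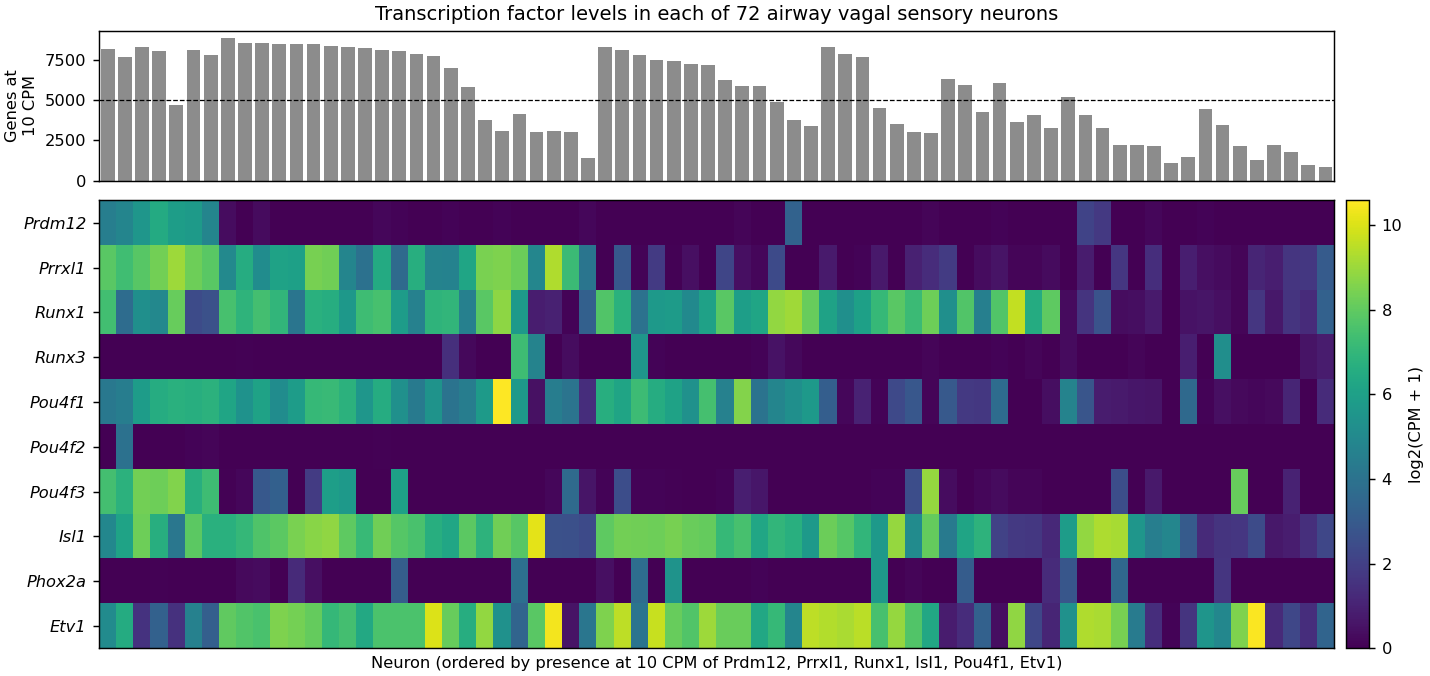
Level of each of the 10 factors as log2(CPM + 1) in each of 72 neurons (columns), with the number of genes at 10 CPM above each column and a dashed line at 5000 genes. Neurons are ordered by presence of the factors, so that the 7 Prdm12 neurons stand at the left and neurons without any factor, all with few genes, at the right.

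Isl1 (ENSMUSG00000042258, chromosome 13, 116298281 to 116309689, minus strand), a LIM homeodomain factor of sensory and motor neurons, was the most widespread of the set. It was detected in 56 of 72 neurons (77.8%, exact 95% binomial interval 66.4 to 86.7%), and in these its level ran from 17.1 to 1142 CPM, the median being 196.0 CPM. No neuron lacked Isl1 reads, and the highest level below the threshold was 7.26 CPM. All such intervals cover counting error only. Isl1 was found in 37 of the 38 neurons with 5000 or more genes and in 19 of the other 34. The 16 neurons below the threshold had a median of 2634 genes, against 7230.5 in the neurons with Isl1, and the part of this gap was not tested. The exception among gene-rich neurons was AM283, with 3.2 CPM of Isl1.

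Pou4f1 (ENSMUSG00000048349, chromosome 14, 104461676 to 104467999, minus strand), a POU homeodomain factor that works with Isl1 in sensory neurons, was detected in 43 neurons (59.7%, 47.5 to 71.1%). Its median level in them was 52.5 CPM, with a range of 11.4 to 1537 CPM and quartiles of 24.8 and 95.8 CPM. The highest value belonged to AM010, and the next, in AM234, was 394.9 CPM. In gene-rich neurons Pou4f1 was found in 33 of 38 and in the others in 10 of 34. Isl1 and Pou4f1 were found together in 39 neurons, Isl1 alone of this pair in 17 and Pou4f1 alone in 4.

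The remaining POU factors were less frequent. Pou4f3 (ENSMUSG00000024497), best known as a factor of inner ear hair cells that is also made in sensory ganglia, was detected in 13 neurons (18.1%, 9.98 to 28.9%) at 11.7 to 482.8 CPM, with a median of 155.2 CPM. Of these 13, 11 had Pou4f1 as well. The other 2, AM078 and AM278, carried Pou4f3 at 482.8 and 276.8 CPM with Pou4f1 at 0.1 and 0.2 CPM. Pou4f2 (ENSMUSG00000031688, chromosome 8, 78433010 to 78436645, minus strand), a factor of retinal ganglion cells, was found in 1 neuron, AM303, at 14.5 CPM, and 68 neurons had no Pou4f2 read. In all, 45 of 72 neurons carried at least 1 Pou4f gene.

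The bases before the start sites of Prdm12, Pou4f1 and Isl1 are printed to set a factor of few neurons beside a pair of factors found in most. They are the 250 bases upstream of the start in RefSeq (GRCm38.p6 table), on the strand of the gene, at chr2:31639787-31640036 (+) for Prdm12, chr14:104468000-104468249 (-) for Pou4f1 and chr13:116309689-116309938 (-) for Isl1. Capitals mark each E-box, CANNTG, the core bound by basic helix-loop-helix factors and read on both strands.
Prdm12: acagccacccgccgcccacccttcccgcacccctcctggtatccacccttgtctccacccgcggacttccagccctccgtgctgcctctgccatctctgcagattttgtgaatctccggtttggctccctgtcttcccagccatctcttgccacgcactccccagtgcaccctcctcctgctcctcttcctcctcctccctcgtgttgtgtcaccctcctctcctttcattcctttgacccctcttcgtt
Pou4f1: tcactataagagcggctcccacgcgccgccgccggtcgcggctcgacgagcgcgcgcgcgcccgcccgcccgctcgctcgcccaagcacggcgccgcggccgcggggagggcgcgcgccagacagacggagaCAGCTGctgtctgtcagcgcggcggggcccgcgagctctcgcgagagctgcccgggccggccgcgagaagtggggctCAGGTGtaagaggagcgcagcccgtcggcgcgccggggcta
Isl1: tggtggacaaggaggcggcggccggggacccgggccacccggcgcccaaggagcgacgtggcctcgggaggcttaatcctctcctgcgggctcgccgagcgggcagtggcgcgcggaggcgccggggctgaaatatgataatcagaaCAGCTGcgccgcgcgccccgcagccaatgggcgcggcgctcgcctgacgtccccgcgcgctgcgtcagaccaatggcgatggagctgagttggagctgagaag
The Prdm12 stretch held 0 E-boxes, that of Pou4f1 held 2 and that of Isl1 held 1. An E-box was present in 66.2% of the 32851 mouse windows of this length and in 5 of 12 windows of 9 members. Base composition differed as well, with a GC content of 61.2% and 10 CpG pairs for Prdm12, 78% and 47 for Pou4f1, and 71.2% and 33 for Isl1. In the Prdm12 stretch 76.0% of bases were C or T. The homeodomain core TAATTA was in 0 of the 12 windows and in 4.84% of all windows, and the ETS core CCGGAA in 1 of 12 and in 12.03%. These matches describe the letters and are not binding sites.

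Runx1 (ENSMUSG00000022952, chromosome 16, 92601466 to 92826149, minus strand), the runt-domain factor that divides nociceptors of the dorsal root ganglion into classes, was detected in 50 neurons (69.4%, 57.5 to 79.8%). In these the median was 112.9 CPM and the range 12.4 to 783 CPM, and the highest value was in AM244. It was found in 35 of 38 gene-rich neurons and in 15 of 34 others. The 3 gene-rich neurons below the threshold were AM011 with 4.4 CPM, AM228 with 5.2 CPM and AM219 with 0.2 CPM, of which the first pair carried Prdm12. Leukocyte markers, which matter because blood cells also make Runx1, had a median sum of 0.203 CPM in Runx1 neurons (0 to 298.0 CPM) and of 0 in the others (0 to 348.3 CPM). Of the 8 leukocyte markers 6 reached 10 CPM in at least 1 neuron, while Cd3e and Cd52 did so in none.

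Runx3 (ENSMUSG00000070691, chromosome 4, 135120652 to 135177990, plus strand), the runt-domain factor of proprioceptors, was detected in 4 neurons (5.56%, 1.53 to 13.6%). Its level was 158.5 CPM in AM230, 46.5 CPM in AM006, 36.4 CPM in AM299 and 25.7 CPM in AM080, and the highest value in any other neuron was 1.66 CPM. AM230 and AM006 also carried Runx1, at 51.1 and 14.8 CPM. All 4 Runx3 neurons had Ntrk2, the BDNF receptor, at 53.2 to 306.7 CPM, and all 4 had P2rx2, an ATP-gated channel, at 56.9 to 602.6 CPM. Over all 72 neurons Ntrk2 was in 59 and P2rx2 in 39. Ntrk3, the neurotrophin receptor of proprioceptors, and Pvalb, their calcium-binding protein, were each found in 1 of 4. Over all 72 neurons Ntrk3 was in 26 and Pvalb in 2, so 1 of 4 does not show a lack of either. The summed level of satellite glia markers had a median of 4738 CPM in the Runx3 neurons (549 to 12137 CPM) and of 1328 CPM in the 68 others (9.01 to 56618 CPM). AM230 also held 40.9 CPM of the leukocyte gene Ptprc. The part of these transcripts in the Runx3 values was not tested.

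The start regions of the 2 Runx genes share a run of 18 bases, printed here in capitals because it is the longest that their windows have in common, where a window runs from 250 bases before a start to 50 after it. It lies at chr16:92826026-92826053 (-) for Runx1, from 21 to 48 bases after the start in RefSeq (GRCm38.p6 table), and at chr4:135120504-135120531 (+) for Runx3, from 114 to 141 bases before it, with 5 flanking bases on each side in both spans.
Runx1: ataaaCAACCACAGAACCACAAGttggg
Runx3: tccctCAACCACAGAACCACAAGgccag
The run holds 2 copies of the RUNX core ACCACA and was found on either strand in 4 of 32851 such windows, those of Runx1, Runx2, Runx3 and Gm16225. By itself the core, read on both strands, was in 14.05% of all stretches of 250 bases before a start and in 3 of the 12 of the members. The shared letters stand beside unlike patterns, 50 neurons with Runx1 and 4 with Runx3.

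**Figure D2:**
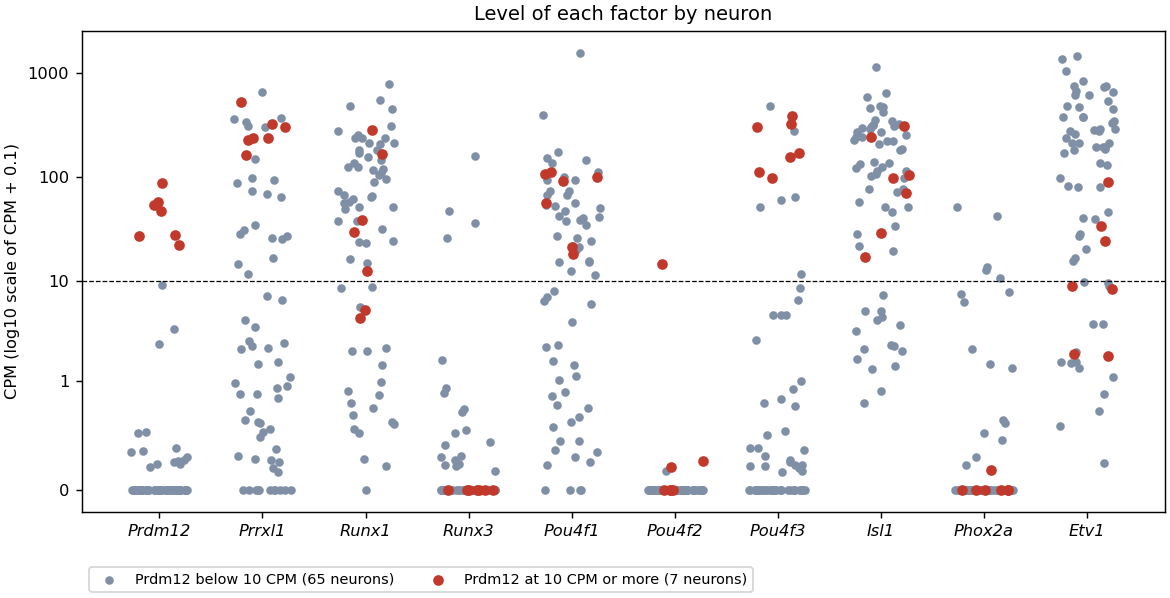
Level of each factor in each of 72 neurons in CPM on a log10 scale of CPM + 0.1, with red points for the 7 neurons with Prdm12 at 10 CPM or more, grey points for the other 65 and a dashed line at 10 CPM. Red points lie high for Prrxl1 and Pou4f3, where the lowest are 162.2 and 97.6 CPM, and low for Etv1, where 4 of 7 fall under the line.

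Etv1 (ENSMUSG00000004151, chromosome 12, 38779380 to 38870484, plus strand), an ETS factor known from the muscle afferent circuit of the spinal cord, was detected in 53 neurons (73.6%, 61.9 to 83.3%). The median level in them was 234.6 CPM and the range 15.6 to 1455 CPM. Every kept neuron had Etv1 reads, as for Isl1. Etv1 was found in 32 of 38 gene-rich neurons and in 21 of 34 others. AM288, with 1289 genes, had the highest Etv1 level, 1455 CPM, and no other factor of the set. AM302, with 3075 genes, had 1357 CPM of Etv1 together with the highest Prrxl1 level, 645 CPM.

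Phox2a (ENSMUSG00000007946, chromosome 7, 101818313 to 101822726, plus strand), a homeodomain factor of visceral and autonomic neurons, was detected in 5 neurons (6.94%, 2.29 to 15.5%). Its level was 51.1 CPM in AM248, 41.8 CPM in AM018, 13.6 CPM in AM230, 12.7 CPM in AM006 and 10.7 CPM in AM004. The last 3 lay close to the threshold, as did AM239 below it with 7.81 CPM, and 54 neurons had no Phox2a read. All 5 carried Isl1 and Ntrk2, 4 carried each of Etv1, Runx1 and P2rx2, and 2 carried Runx3. The sodium channel Scn10a of nociceptors was in 0 of 5, which allows a share of up to 60%, and in 44 of all 72 neurons. By number of genes, Scn10a was in 33 of 38 gene-rich neurons and 11 of the 34 others, and 3 of the 5 Phox2a neurons were among the 34. Satellite glia markers had a median sum of 4609 CPM in Phox2a neurons (1813 to 13852 CPM) and of 1322 CPM in the 67 others (9.01 to 56618 CPM), and their part in the Phox2a values was not tested. Phox2a shares 95 exon bases with Inppl1 on the opposite strand, and Inppl1 reached 10 CPM in 1 of the 5 Phox2a neurons, at 12.3 CPM.

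Prrxl1 (ENSMUSG00000041730, chromosome 14, 32599407 to 32649246, plus strand), a paired homeodomain factor needed for pain fibres to reach the spinal cord, was detected in 29 neurons (40.3%, 28.9 to 52.5%) at 11.7 to 645 CPM with a median of 97.8 CPM. It was found in 21 of 38 gene-rich neurons and in 8 of 34 others. In the 7 of these neurons that also had Prdm12 the level was 162.2 to 516.9 CPM with a median of 236.0 CPM, and in the 22 without Prdm12 it was 11.7 to 645 CPM with a median of 70.6 CPM. The ranges overlap. Of the 22, Etv1 was detected in 20, Pou4f1 in 20, Isl1 in 19, Runx1 in 18 and Pou4f3 in 4.

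Prdm12 (ENSMUSG00000079466, chromosome 2, 31640037 to 31655795, plus strand), a PR-domain regulator required for nociceptors to form, was detected in 7 neurons (9.72%, 3.999 to 19.01%). Its level was 87.0 CPM in AM013, 57.8 CPM in AM304, 53.7 CPM in AM011, 46.9 CPM in AM237, 27.4 CPM in AM228, 27.04 CPM in AM303 and 22.04 CPM in AM296. The next neuron, AM086, had 9.13 CPM and fell below the threshold. All 7 had Prrxl1, Pou4f1, Pou4f3 and Isl1, while 5 had Runx1, 3 had Etv1, 1 had Pou4f2, and none had Runx3 or Phox2a. An absence from 7 neurons allows a share of up to 42.9%.

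Within the 7, Runx1 and Etv1 passed the threshold in some and not in others, while Pou4f3 passed it in all. It was 380.1 CPM in AM304, 324.1 CPM in AM237, 303.5 CPM in AM013, 169.9 CPM in AM296, 155.2 CPM in AM228, 112.1 CPM in AM303 and 97.6 CPM in AM011. Runx1 was 278.3 CPM in AM304 and 165.7 CPM in AM296, then 38.2, 29.5 and 12.4 CPM in AM237, AM013 and AM303, and below the threshold in AM228 and AM011. Etv1 passed the threshold only in AM303 with 89.1 CPM, AM296 with 33.6 CPM and AM011 with 24.3 CPM. It lay just below the threshold in AM013 with 8.83 CPM and AM228 with 8.27 CPM, and was 1.89 CPM in AM237 and 1.81 CPM in AM304. Isl1 ran from 17.1 CPM in AM304 to 307.6 CPM in AM237. AM304 thus combined the highest Prrxl1, Runx1 and Pou4f3 with the lowest Isl1 and Etv1 of the 7, in a neuron with 4722 genes. The antisense gene Gm13425 shares 200 exon bases with Prdm12 and was detected in all 7, at 15.1 to 136.3 CPM with a median of 59.4 CPM, and at no more than 15.9 CPM in the 65 others. Reads within these shared bases, out of 2471 exon bases of Prdm12, cannot be told apart where counting ignored strand.

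Per length of exon the order of levels changed. In the neurons where each factor was detected, the median TPM, counts per kilobase of exon brought to the same sum in every neuron, was 170.7 for Pou4f3, 141 for Isl1, 71.7 for Prrxl1, 58.9 for Prdm12, 54.2 for Etv1, 29.6 for Pou4f1, 26.5 for Runx1, 23.5 for Runx3, 18.3 for Phox2a and 11.9 for Pou4f2. The ranges of neighbours overlapped throughout that order down to Phox2a: Pou4f3 spanned 13.6 to 541.8 TPM, Isl1 spanned 12.2 to 649.0 TPM, and Phox2a spanned 13.1 to 74.1 TPM. The single Pou4f2 value lay below the lowest Phox2a value. Exon lengths were the union over annotated transcripts, 13296 bases for Etv1 and 12025 for Runx1, which lowers their TPM where a shorter transcript is made.

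**Figure D3:**
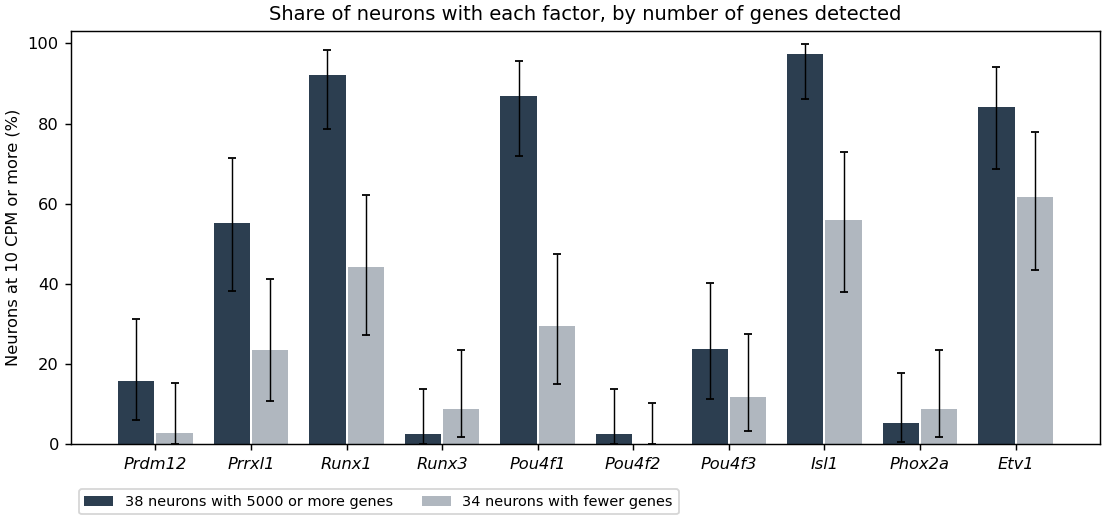
Share of neurons with each factor at 10 CPM or more in 38 neurons with 5000 or more genes (dark bars) and 34 neurons with fewer (light bars), with exact 95% binomial intervals that cover counting error only. Pou4f1 falls from 33 of 38 to 10 of 34, while Etv1 falls from 32 of 38 to 21 of 34.

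Neurons were then sorted by which of the 10 factors they carried. The number of factors per neuron had a median of 4 with quartiles of 2 and 5 and a maximum of 8, reached by AM303. There were 31 distinct combinations, of which 20 were seen in 1 neuron each. The commonest, Prrxl1 with Runx1, Pou4f1, Isl1 and Etv1, was found in 14 neurons (19.4%, 11.1 to 30.5%), and the same without Prrxl1 in 11 (15.3%, 7.88 to 25.7%). Gene-rich neurons carried 2 to 8 factors with a median of 5 in 14 combinations, and the other 34 carried up to 6 with a median of 2 in 22 combinations. The 4 neurons with no factor had at most 2248 genes. The quartet Runx1, Pou4f1, Isl1 and Etv1, singled out after its values were seen, was complete in 32 of 72 neurons, 27 of the 38 gene-rich and 5 of the 34 others.

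**Figure D4:**
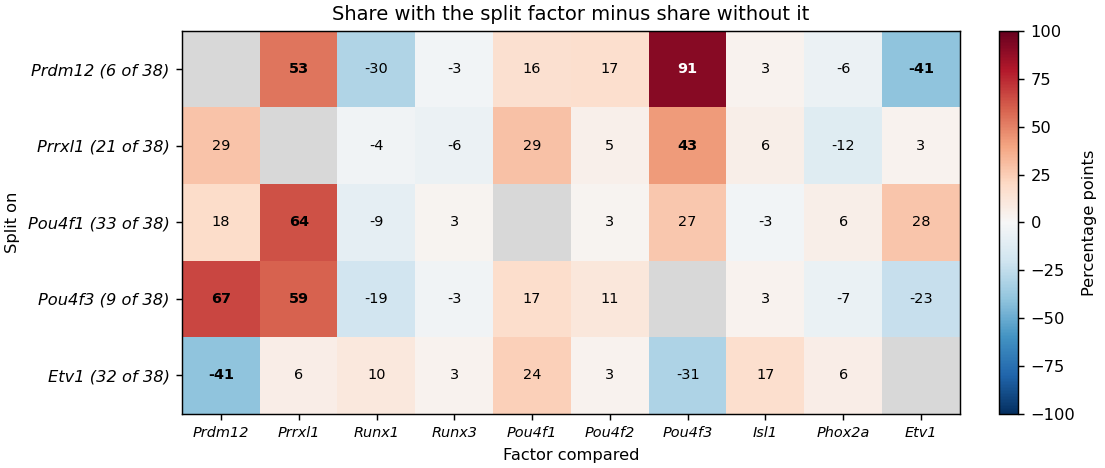
Difference in percentage points between the share of neurons with the factor in each column among neurons with the factor in each row and that among neurons without it, over 38 neurons with 5000 or more genes. Bold figures mark differences of 40 points or more, the largest of which joins Prdm12 with Pou4f3.

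Next, each factor with at least 5 gene-rich neurons on either side was used to split the 38 neurons, to learn which factors go together or apart. Prdm12, Prrxl1, Pou4f1, Pou4f3 and Etv1 could be used, which gave 45 ordered pairs. In 30 of these the compared factor was detected in at least 3 of the neurons, and 8 pairs, all among the 30, passed 40 points. A pair such as Prdm12 and Pou4f3 counts in both directions and rests on the same neurons.

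Prdm12 neurons stood apart in 3 factors. Pou4f3 was in 6 of 6 gene-rich Prdm12 neurons and 3 of 32 others, a difference of 90.6 points, at 97.6 to 324.1 CPM against 0 to 64.6 CPM. Over all 72 neurons the ranges overlapped, at 97.6 to 380.1 CPM in the 7 Prdm12 neurons and 0 to 482.8 CPM in the 65 others. Over all 11870 genes compared, 4.32% were more frequent with Prdm12 by 40 points or more and 1.84% less frequent, beside 2 and 1 of the 6 factors compared. Prrxl1 was in 6 of 6 and 15 of 32, a difference of 53.1 points, at 162.2 to 321.6 CPM against 0 to 339.1 CPM. At a threshold of 1 count these differences were 32.6 and 20 points. Etv1 went the other way, in 3 of 6 and 29 of 32, a difference of -40.6 points, at 1.89 to 89.1 CPM with a median of 16.6 CPM against 0.313 to 1029 CPM with a median of 233.6 CPM. The Etv1 difference lay at the edge of the size rule and was -37.5 points with TMM scaling (trimmed mean of M-values), -34.1 points over all 72 neurons, -39.3 points without the neurons of identifier block 2 and 0 at a threshold of 1 count. It also rests on values near the threshold, as AM013 and AM228 counted as without Etv1 at 8.83 and 8.27 CPM. Runx1 was in 4 of 6 and 31 of 32 (-30.2 points), Pou4f1 in 6 of 6 and 27 of 32 and Isl1 in 6 of 6 and 31 of 32, and none of these passed. The numbers of genes were close in the Prdm12 split, with medians of 8107 and 7851.5. They lay further apart in the Prrxl1 split, at 8216 with and 7275 without, and in the Etv1 split, at 7995.5 and 7066. The part of these gaps in the differences of those splits was not tested.

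Neuron identifiers run in 3 blocks of numbers, which the labels do not call batches, and Prdm12 neurons fell in blocks 1 and 3. Over all kept neurons of a block, whatever their number of genes, Pou4f3 was in 2 of 2 Prdm12 neurons and 2 of 14 others in block 1, and in 5 of 5 and 3 of 40 in block 3. Prrxl1 was in 2 of 2 and 7 of 14, and in 5 of 5 and 9 of 40. For Etv1 the counts were 1 of 2 against 13 of 14, and 2 of 5 against 26 of 40. Among gene-rich neurons the counts for Pou4f3 were 2 of 2 and 2 of 9 in block 1 and 4 of 4 and 1 of 19 in block 3, and those for Etv1 were 1 of 2 and 9 of 9, and 2 of 4 and 16 of 19. For Prrxl1 they were 2 of 2 and 6 of 9, and 4 of 4 and 5 of 19. Each of these 3 differences had the same direction in both blocks and both sets of neurons. They were picked for their size on these same neurons, and the gene-rich set lies within the other. With 2 Prdm12 neurons in block 1, the shared direction is no independent support. Block 2 held 11 kept neurons, none with Prdm12 at 10 CPM.

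Pou4f3 reached beyond the Prdm12 neurons. The 6 neurons with Pou4f3 and no Prdm12 had 482.8 CPM in AM078, 276.8 CPM in AM278, 64.6 CPM in AM239, 60.2 CPM in AM017, 51.7 CPM in AM007 and 11.7 CPM in AM252. AM239, AM017 and AM007 were gene-rich and shared 1 combination, Prrxl1, Runx1, Pou4f1, Pou4f3, Isl1 and Etv1. Among gene-rich neurons Prrxl1 was in 9 of 9 with Pou4f3 and 12 of 29 without it, a difference of 58.6 points, and Prdm12 in 6 of 9 and 0 of 29, a difference of 66.7 points. At 1 count they were 24.4 and 31.5 points, and at 50 CPM the Prdm12 difference was 22.2 points. Over all genes 3.06% were more and 0.657% less frequent with Pou4f3 by that size. Seen from Prrxl1, Pou4f3 was in 9 of 21 neurons with it and 0 of 17 without it, a difference of 42.9 points, where 3.68% of genes were more and 0.101% less frequent. That difference was 36.8 points with TMM scaling, 33.3 points over all 72 neurons and 38.5 points without block 1.

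Pou4f1 and Etv1 each gave 1 pair. Prrxl1 was in 21 of 33 gene-rich neurons with Pou4f1 and 0 of 5 without it, a difference of 63.6 points, and 3.66% of all genes were more and 1.94% less frequent with Pou4f1. The Prrxl1 difference was 31.7 points with TMM scaling and 14.4 points at 50 CPM. A 0 of 5 allows a share of up to 60%. Prdm12 was in 3 of 32 neurons with Etv1 and 3 of 6 without, the same neurons as above, a difference of -40.6 points, and 2.76% of all genes were more and 0.691% less frequent with Etv1. It was -33.2 points with TMM scaling, -20 points at 50 CPM, -15.4 points over all 72 neurons, -39.3 points without block 2 and -30.9 points without block 1.

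Transcripts of proteins that act with the factors ranged from widespread to absent. Of 15 partner genes, 14 were detected in at least 1 neuron and 8 in at least 50% of neurons. These counts, and the like counts for the lists below, stand without the share of all genes at such reach. They describe the lists and do not set them apart from other genes. Cbfb, the shared partner of Runx proteins, was in 70 of 72 with a median of 775.7 CPM, while Lmo4, a LIM-only protein, and Rlim, a ubiquitin ligase of LIM complexes, were each in 54. Lmo3 was detected in none. No partner of 14 compared passed 40 points for the Prdm12, Pou4f1 or Pou4f3 split. Ldb1, the bridge of LIM homeodomain complexes, was in 14 of 21 Prrxl1 neurons and 4 of 17 others, and its relative Ldb2 in 24 of 32 Etv1 neurons and 2 of 6 others. Each was 1 of 14 partners, beside the 3.68% and 2.76% of all genes given above. The median of Ldb1 was 11.9 CPM in Prrxl1 neurons and 5.77 CPM in the others, near the threshold on both sides. Numbers of genes also differed between the sides of both splits, as given above.

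Among 38 other lineage factors, 27 were detected in at least 1 neuron, 9 in at least 50% and 11 in none. The most frequent were Klf7, a Krüppel-like factor of sensory neurons, in 67 neurons and Ebf1, a helix-loop-helix factor, in 61. With Prdm12, 3 of 19 compared were more frequent and 1 less, beside 4.32% and 1.84% of all genes. The list was chosen with earlier results of these data known, so a share above that of all genes is no independent support. Maf, a leucine zipper factor of touch neurons, was in 6 of 6 and 15 of 32, Meis2, a homeodomain factor, in 4 of 6 and 5 of 32, and Sox4 in 3 of 6 and 3 of 32. Eya1, a transcriptional cofactor of placodes, was in 0 of 6 and 23 of 32, at 0.270 to 2.24 CPM against 0 to 340.5 CPM. Eya1 was likewise less frequent with Pou4f3, in 2 of 9 and 21 of 29, and Maf more frequent, in 8 of 9 and 13 of 29. Each was 1 of 19 compared, beside 0.657% of all genes less and 3.06% more frequent with Pou4f3. Casz1, a zinc finger factor, was in 32 of 32 Etv1 neurons and 3 of 6 others. It was 1 of 19 compared, beside 2.76% of all genes more frequent with Etv1. No lineage factor passed 40 points for the Prrxl1 or Pou4f1 split.

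Genes that mark neuron classes were set beside the factors in the same way. Of 30, 27 were detected in at least 1 neuron, with Ret, the receptor of the GDNF family, in 62 and Slc17a6, a vesicular glutamate transporter, in 61. Dbh, Chat and Slc17a8 were in none. With Prdm12, 8 of 23 compared were more frequent and 4 less, beside 4.32% and 1.84% of all genes, with a median difference of 0 over the 23 and 3.13 points over all genes. The list was chosen with earlier results of these data known, so a share above that of all genes is no independent support. Ntrk3 was in 5 of 6 and 13 of 32. Ntrk2 was in 3 of 6 and 32 of 32, at 0.385 to 24.6 CPM against 38.7 to 719.8 CPM. The catecholamine enzyme Th was in 0 of 6 and 17 of 32. Genes with a larger share also included Calca, Calcb, Piezo2, Slc17a7, Htr1b and Asic3, and the others with a smaller share were Gfra2 and P2rx2.

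The 5 class genes past 40 points for Pou4f3 were each past it in the same direction for Prdm12, with which Pou4f3 shares 6 of 9 neurons. Piezo2, a stretch-gated channel, was in 9 of 9 and 11 of 29, Ntrk3 in 8 of 9 and 10 of 29, Htr1b, a serotonin receptor, in 6 of 9 and 1 of 29, and Asic3, an acid-sensing channel, in 6 of 9 and 6 of 29. P2rx2 was in 2 of 9 and 24 of 29. These were 4 class genes more frequent and 1 less of 23, beside 3.06% and 0.657% of all genes, with the same limit of a list chosen with earlier results known. For Prrxl1 the gene was Gfra1, a GDNF co-receptor, in 20 of 21 and 8 of 17. It was 1 of 23 compared, beside 3.68% of all genes more frequent with Prrxl1. Neurons without Pou4f1 had Gfra2, the neurturin co-receptor, in 5 of 5 and the irritant channel Trpa1 in 3 of 5, against 19 of 33 and 6 of 33 with it. With Pou4f1, 2 of 23 class genes were thus less frequent and 0 more, beside 1.94% and 3.66% of all genes. Neurons without Etv1 had Calca and Asic3 in 4 of 6 each, against 8 of 32 each with it, and Calcb in 4 of 6 against 4 of 32. With Etv1, 3 of 23 class genes were thus less frequent and 0 more, beside 0.691% and 2.76% of all genes. Of the 6 neurons without Etv1, 3 were Prdm12 neurons.

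Genes with a like pattern were sought by Pearson's r of log2(CPM + 10) over the 38 gene-rich neurons among 10157 protein-coding genes. Points share library, depth and number of genes, and r is a description. Trappc3l (0.97), Syt6 (0.93) and Htr1b (0.91) were most like Prdm12, and Pou4f3 came at rank 7 with 0.86. Trappc3l, Syt6 and Htr1b were each detected in 7 of the 38 neurons, among them all 6 Prdm12 neurons, so their r restates that split. Tshb (0.90), Trappc3l (0.90) and Syt6 (0.86) were most like Pou4f3, and Tshb was detected in 6 of the 38, all with Pou4f3. The 3 genes of Prdm12 were the same over all 72 neurons, which include the 38. For Prrxl1 the genes were Camk2g (0.79), Adam11 (0.77) and Kcnip3 (0.77), for Isl1 B3glct (0.79), Syngr1 (0.78) and Tmem132e (0.72), and for Etv1 Jak1 (0.82), Ncam2 (0.76) and Wipf3 (0.74). For Runx1 they included Ccser2 (0.66) and Gpr19 (0.65), and for Pou4f1 they were Rpa1 (0.68), Cacng7 (0.67) and Fgf9 (0.66). None of the 3 genes was shared with the list over all 72 neurons for Runx1, Pou4f1, Isl1 or Etv1, and 1 was for Prrxl1. Phox2a had enough neurons only over all 72, where Lrrc55 (0.73), Ddc (0.68) and Scube1 (0.67) were most like it. Between factors, Isl1 had an r of 0.52 with Etv1 and 0.50 with Pou4f1, Prrxl1 had an r of 0.69 with Pou4f3 and 0.64 with Prdm12, and Etv1 had an r of -0.52 with Prdm12 and -0.46 with Pou4f3. Over all 72 neurons Prrxl1 had an r of 0.46 with Pou4f3 and 0.53 with Prdm12, and Etv1 had an r of -0.30 with Prdm12 and -0.20 with Pou4f3.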

How the data were processed

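The deposited file holds counts of reads per gene as the authors made them, without scaling, for 84 neurons and 50686 Ensembl identifiers. Reads had been assigned with featureCounts, per the submitters' processing notes. Its version is not given in the sources used here, nor are the aligner, genome build, annotation and strand setting. Amplified copies of a transcript may count more than once, as molecular identifiers are not mentioned. The 10 factors and all gene lists were chosen with earlier results of these data known.

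From the deposited counts, CPM was computed with each neuron's total and TPM with exon lengths from GENCODE M21 (GRCm38). That annotation gave symbols to 50376 identifiers, left 310 unmatched and gave the coordinates of genes; promoter bases are from RefSeq. As no label names an animal, no p-value was computed. The highest correlation between kept neurons was 0.959, and none were merged. Intervals of shares are exact (Clopper-Pearson) at 95%, and for a share of 0 the limit is that of 3 counts. Genes compared between sets of neurons had to be detected in at least 3 neurons. Named genes were all factors, the 2 most frequent of each list, list genes past 40 points, the 3 genes most like each factor with at least 5 neurons, and genes that overlap a factor. Some genes that this rule names are not reported here. Alternatives were other thresholds, TMM scaling (edgeR 4.0.16, R 4.3.3, no test), other sets of neurons and leaving out identifier blocks. The comparison of shares was checked on simulated counts that lacked the wide range in number of genes seen here. That check therefore does not measure error in these neurons. Scripts ran in Python 3.11.15 (numpy 2.4.6; pandas 2.3.3; scipy 1.17.1; matplotlib 3.10.9).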

Additional observations from a re-analysis of the deposited data

Results flagged for a closer look

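The 12 neurons left out for having under 5000000 counts, with at most 3892206, carried reads of the factors as well. Counting a factor as present at 10 CPM or more and above 3 counts, Etv1 was present in 8 of the 12, Isl1 in 6, Prrxl1 in 5, Runx1 in 5, Pou4f1 in 1 and Pou4f3 in 1. Prdm12, Runx3, Pou4f2 and Phox2a were in 0 of 12, which allows a share of up to 25%. The Pou4f3 value was 381.3 CPM in AM294 and the highest Prrxl1 value 635.6 CPM in AM290, both within the range of the kept neurons. They were looked at because no comparison uses these neurons.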

How the results depend on the processing

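No paired analysis was possible because the labels define 1 group and no shared replicate numbers. At a threshold of 1 count the share of neurons was 30.6% for Prdm12, 84.7% for Prrxl1, 98.6% for Runx1, 27.8% for Runx3, 94.4% for Pou4f1, 54.2% for Pou4f3, 25% for Phox2a and 100% for Isl1 and Etv1. At 50 CPM it was 27.8% for Prrxl1, 52.8% for Runx1, 31.9% for Pou4f1, 59.7% for Etv1, 1.39% for Runx3 and Phox2a and 0 for Pou4f2. In neurons with 5000 or more genes it was 55.3% for Prrxl1, 92.1% for Runx1, 86.8% for Pou4f1, 97.4% for Isl1 and 84.2% for Etv1, with 14 combinations. Without block 3 it was 55.6% for Prrxl1, 100% for Isl1, 92.6% for Etv1 and 0 for Pou4f2, with 13 combinations. Pou4f2 was also at 0 with TMM scaling. In all, 64 of 90 shares under an alternative stayed inside the interval given. The 8 of 45 pairs past 40 points became 5 of 45 with TMM scaling, 1 of 27 at 1 count, 3 of 36 at 50 CPM and 3 of 36 without block 1. Where fewer pairs are given, some splits had too few neurons on 1 side, among them that on Prdm12 at 50 CPM and without block 1. The direction held in 39 of 40 recomputed differences, the other being 0, and 21 of the 40 still passed 40 points. These are the 8 pairs picked for their size, recomputed on overlapping neurons, so a kept direction is no independent support. Without block 3 no split had 5 neurons on each side. The 513 genes more frequent and 218 less frequent with Prdm12 became 144 and 19 at 1 count, 2140 and 58 over all kept neurons, and 1058 and 460 at 30 points. The cause of these shifts was not tested. The number of Prdm12 neurons, 7, limits every share in them.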

Other observations

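Neurons without Isl1 still carried other factors. Of the 16 neurons with Isl1 below 10 CPM, Etv1 was detected in 7, Runx1 in 4, Pou4f1 in 4, Prrxl1 in 3, Pou4f3 in 2 and Runx3 in 1. AM283, the gene-rich member of these, combined Runx1 at 209.2 CPM and Pou4f1 at 12.5 CPM with the peptide gene Calca at 379.1 CPM and the capsaicin receptor Trpv1 at 50.9 CPM.

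The vesicular glutamate transporter Slc17a6 did not part by Pou4f1 in the share of gene-rich neurons, being in 5 of 5 without it at 748 to 1406 CPM and in 33 of 33 with it at 85.7 to 1424 CPM. Ret was likewise in 5 of 5 and 33 of 33. P2rx2 was in 5 of 5 without Pou4f1 and 21 of 33 with it, a difference of -36.4 points that does not pass the size rule.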
